A study of Drosophila melanogaster with 10 samples.

Results

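RNA-seq of adult male thoraces was used to compare control flies at day 14 with control flies at day 2, both kept at 29 °C and without a gut tumour. Each condition was 1 library of 8 to 10 thoraces, so 2 of the 10 libraries of the series make up the comparison. It covers all 17563 genes of the count table, of which 9626 had a level of at least 1 rpm (reads per 1000000 reads on genes) in the larger library. The control genotype was esg-Gal4, tub-Gal80ts, UAS-GFP/+, in which the esg driver of gut progenitor cells makes GFP at 29 °C, so the controls carried an active driver too. Crosses were held at 18 °C and adult males were moved to 29 °C after eclosion. The day 14 flies were thus older and had also spent longer at 29 °C with an active driver, and these differences cannot be told apart. Controls were also taken at day 38, at 18 °C after day 14. In the tumour genotype, here Esg>yki, UAS-yki-act stands opposite UAS-GFP and the same esg-Gal4 and tub-Gal80ts make the gut progenitors produce active Yorkie at 29 °C. It was sampled at days 2, 8 and 14 at 29 °C and at days 20, 26, 32 and 38 at 18 °C. The control course is the background against which the study reads the effect of the tumour on muscle metabolism.

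The fly thorax is mostly flight and leg muscle, with some fat body, nervous tissue and trachea. The study's methods remove the whole gut when thoraces are dissected for other assays, and give no separate dissection for these libraries. Indirect flight muscle burns sugar through glycolysis and sends electrons to oxygen through a dense mass of mitochondria, whose respiratory complexes combine subunits encoded in the nucleus with a few encoded in the mitochondrial genome. Its sarcomeres are built on the flight muscle actin Act88F with special regulators such as flightin. Newly eclosed flies still complete muscle growth, cuticle hardening and the loss of larval fat cells. In bulk tissue, fewer cells of a type and less RNA per cell cannot be told apart.

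The libraries held 31058987 reads on genes at day 14 and 29290646 at day 2, within the range of 14615109 to 38208955 over all 10 libraries. Reads were seen for 14057 genes at day 14, the most of any library, and for 12844 at day 2. The mitochondrial genome took 29.3% of the reads at day 14 and 26.6% at day 2, and the 20 most abundant genes took 37.3% and 37.1% on those days. With 1 library a day no difference has a replicate check, and the 95% exact Clopper-Pearson intervals given with ratios cover counting error only. A gene was counted as higher or lower when its log2 ratio of rpm, day 14 over day 2, passed 1.3 or -1.3, the fold cut-off of the study.

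At day 14, 924 genes (9.6% of those tested) were higher and 301 (3.13%) were lower than at day 2. Ratios leaned upward over the whole transcriptome, with a median of 0.34 over all genes, 6826 ratios above 0 and 2800 below 0. The lean depends on the scaling, since edgeR's trimmed mean (TMM) factors gave a median of -0.01 with 540 higher (5.61%) and 498 lower genes (5.17%). Of the calls, 75.4% were higher genes by rpm and 52.0% by TMM. Ratios below are on the rpm scale and are to be read against the median of 0.34. Under all 4 scalings tried, 533 genes were higher and 278 lower, and the whole counting interval lay past the cut-off for 555 higher and 234 lower genes. The day 2 library of Esg>yki flies, 2 days after the shift to 29 °C, is the nearest to a repeat of the control day 2 library, although its flies already made active Yorkie. Set against it, 624 of the 924 higher and 205 of the 301 lower genes passed the cut-off again. Both ratios use the same day 14 library, so part of this agreement comes from the shared library. With the tested set kept at the same 9626 genes, 804 were higher and 288 lower against the Esg>yki day 2 library. Whether the counting used strand is not given, so reads of genes with overlapping exons cannot be told apart. Beside the overlaps named with a gene below, this holds for SdhD (PTPMT1), mAcon1 (CG43345 and CG43346), Eno (Rrp40), Tm1 (l(3)neo43), Prosbeta5 (Lsm10), ref(2)P (CG10337), tim (snoRNA:Or-CD16), AMPKalpha (CG3719), crq (ex), He (NimB5) and janB (janA).

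**Figure D1:**
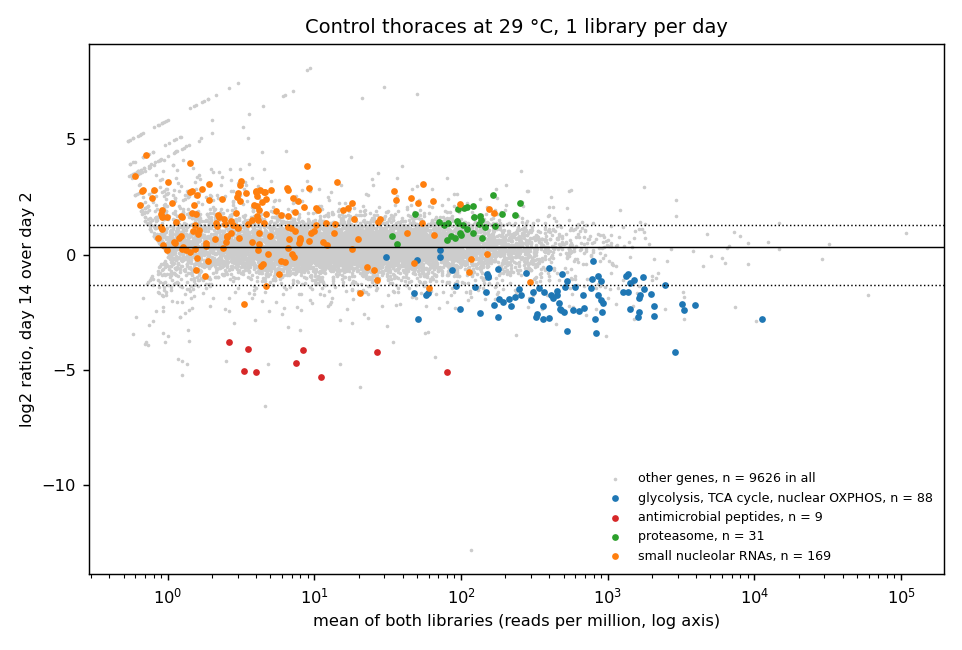
Each point is 1 of the 9626 genes tested, by its mean level in the 2 control libraries (rpm, log axis) and its log2 ratio, day 14 over day 2. The solid line is the median of all genes at 0.34 and the dotted lines are the cut-offs of 1.3 and -1.3. Energy genes (blue) and antimicrobial peptides (red) lie mostly under the lower dotted line, and proteasome genes (green) lie above 0.

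Genes of sugar breakdown were lower at day 14 as a group. All 11 glycolytic genes had ratios below 0, 8 of them past the cut-off, with a median of -2.22. Their summed level was 4055 rpm at day 14 and 18090 rpm at day 2, the highest of all 10 libraries. Gapdh1 (Release 6 assembly, 2R, 7791901 to 7793380, minus strand), which makes 1,3-bisphosphoglycerate, was the most abundant of them per length and differed most, with 297 rpm at day 14 and 5456 rpm at day 2. Its log2 ratio was -4.20 (interval -4.23 to -4.17), an 18.4-fold higher level at day 2. The second copy of the enzyme, Gapdh2, had 558 rpm at day 14 and 1245 rpm at day 2, so its ratio of -1.16 stayed inside the cut-off. Per length Gapdh2 was the more abundant copy at day 14 (387 RPKM, against 201 RPKM for Gapdh1) and Gapdh1 at day 2 (3687 RPKM, against 863 RPKM for Gapdh2), where RPKM is rpm per kilobase of exon.

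The other enzymes between the split of the sugar and pyruvate were all past the cut-off. Triosephosphate isomerase, Tpi, had 102 rpm at day 14 and 692 rpm at day 2. Phosphoglycerate kinase, Pgk, had 47.7 rpm at day 14 and 309 rpm at day 2, and its exons overlap those of Cwc25. Pglym78 (-2.53), Eno (-2.36) and PyK (-2.22), which carry the chain on to pyruvate, were lower by similar amounts. The entry steps differed less, with -0.96 for the hexokinase Hex-A and -0.91 for the aldolase Ald1, while Pgi and the rate-limiting Pfk both had -1.63. Under TMM scaling 10 of the 11 genes were lower, and against the Esg>yki day 2 library 8 of 11.

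Genes that feed glycolysis or carry its electrons leaned the same way, but most stayed inside the cut-off. Of 10 genes for the glycerol phosphate shuttle, lactate and sugar stores, 9 had ratios below 0, with a median of -1.02. By rpm 3 were lower and none higher, and under TMM 6 were lower. Both arms of the shuttle were among them. The mitochondrial arm, Gpo1, had 193 rpm at day 14 and 899 rpm at day 2, and the cytosolic arm, Gpdh1, had 544 rpm at day 14 and 1528 rpm at day 2. Glycogen phosphorylase, GlyP, the most abundant per length, was the third, with 628 rpm at day 14 and 1723 rpm at day 2. Trehalase (Treh, 0.07) and the trehalose synthase Tps1 (-0.03), which handle the blood sugar of flies, were near equal at both days.

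The TCA cycle followed the same direction in all 15 genes measured, with 10 lower, none higher and a median of -1.74. Citrate synthase, kdn, which opens the cycle, had 97.2 rpm at day 14 and 949 rpm at day 2, a log2 ratio of -3.29. The 4 subunits of succinate dehydrogenase were all lower, including SdhD with 86.8 rpm at day 14 and 563 rpm at day 2, and SdhC with 95.1 rpm at day 14 and 565 rpm at day 2. The aconitase mAcon1, the most abundant of the list per length, had 1412 rpm at day 14 and 6447 rpm at day 2. The smallest differences were those of Scsalpha1 (-0.58), a subunit of succinyl-CoA synthetase, and of Ogdh (-0.84), a subunit of the oxoglutarate dehydrogenase.

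Nuclear genes of oxidative phosphorylation were the largest block of lower genes. Of 62 measured, 61 had ratios below 0, 48 were lower and none was higher, with a median of -1.75. Their summed level was 20663 rpm at day 14 and 83452 rpm at day 2. The beta subunit of ATP synthase, ATPsynbeta (chromosome 4, overlapping CG11076), had 2869 rpm at day 14 and 19585 rpm at day 2, when it was among the 8 genes with the most reads. ATPsyngamma, the rotor stalk of the same enzyme, had 142 rpm at day 14 and 1510 rpm at day 2, a log2 ratio of -3.41.

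Every respiratory complex took part. Lower genes were 25 of 33 in complex I (median -1.66), all 4 in complex II, counted above with the TCA cycle (-2.54), 4 of 8 in complex III (-1.34), 6 of 7 in complex IV (-2.35) and 12 of 13 in ATP synthase (-2.16). In complex I, ND-B18 had 12.7 rpm at day 14 and 89.1 rpm at day 2, with exons that overlap opm. In complex IV, COX7C had 207 rpm at day 14 and 1435 rpm at day 2, with exons that overlap oys. The single gene above 0 was ND-MWFE of complex I (0.19), with 76.9 rpm at day 14 and 67.4 rpm at day 2. Carriers of the inner membrane, outside the lists, showed the same: the phosphate carrier Mpcp1 had 156 rpm at day 14 and 1787 rpm at day 2, and the ATP/ADP exchanger sesB, chosen after its values were seen, had 2470 rpm at day 14 and 18071 rpm at day 2.

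For kdn, ATPsynbeta, ATPsyngamma, COX7C, Gapdh1, Tpi, Eno and PyK the control day 2 level was the highest of all 10 libraries, and the Esg>yki day 2 library came next in each. The day 14 level was the lowest of the 10 for none of these genes. Of the other 8 libraries, 7 lay above it for kdn, 6 for ATPsyngamma, COX7C and Eno, and 5 for Gapdh1 and Tpi. For PyK 3 lay above it and for ATPsynbeta 2. These genes were picked from the lists, and other members differed. At day 2, Pfk had 595 rpm in Esg>yki and 557 rpm in control flies, and Ald1 had 1914 and 1731 rpm. In the same order Gapdh2 had 1370 and 1245 rpm, and Gpo1 had 1007 and 899 rpm. Hex-A, Pgi, Pgk and Pglym78 were highest in the control day 2 library. Against the Esg>yki day 2 library the nuclear oxidative phosphorylation list kept a median of -1.42 with 38 of 62 lower.

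Transcripts of the mitochondrial genome did not move with their nuclear partners. Of 25 mitochondrial genes measured, 10 were higher and 1 lower, with a median of 0.96. mt:CoI, the catalytic subunit of complex IV, had 141411 rpm at day 14 and 72851 rpm at day 2, a ratio of 0.96 that stayed inside the cut-off. Over the 13 mitochondrial protein-coding genes the median was 0.48 (0.13 under TMM), with only the complex I subunits mt:ND6 (640 rpm at day 14, 153 rpm at day 2) and mt:ND2 (4427 rpm at day 14, 1399 rpm at day 2) past the cut-off. The ratios of mt:Cyt-b (0.48), mt:CoIII (0.53), mt:CoII (0.26) and mt:ATPase6 (-0.21) were small.

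Mitochondrial ribosomal RNA was lower, with a share of 2.84% of the reads at day 14 and 9.31% at day 2. The large subunit RNA, mt:lrRNA, had 27315 rpm at day 14 and 92209 rpm at day 2, whereas the small subunit RNA, mt:srRNA, had 1126 rpm at day 14 and 842 rpm at day 2. These libraries were depleted of rRNA before sequencing, and the part of that step in the level of either RNA was not tested. Of 22 mitochondrial tRNAs 10 were measured. They were the higher class, 8 of 10 past the cut-off with a median of 2.21 (1.85 and 6 of 10 under TMM). Their levels were low, as in mt:tRNA:Tyr-GTA with 16.1 rpm at day 14 and 1.74 rpm at day 2. Some, such as mt:tRNA:Met-CAT (3.73 rpm at day 14, 0.31 rpm at day 2), reached 1 rpm at day 14 only, which fixed their direction. Whether the reads came from mature tRNA was not tested.

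The ribosomal proteins of the mitochondrion stood near the background, with 2 of 72 higher and 4 lower and a median of 0.17 (-0.19 under TMM). The most abundant per length, mRpS5, had 231 rpm at day 14 and 201 rpm at day 2. The members furthest from 0 were mRpS14 (-1.70), mRpL28 (-1.62) and mRpL37 (1.57). The cytosolic ribosome matched the median of all genes, with 0.34 over 81 genes, 3 higher and 1 lower (-0.02 under TMM, with none higher and 3 lower). RpL39, the most abundant per length, had 819 rpm at day 14 and 437 rpm at day 2. RpL35A (1.40) and RpS27 (1.36) were higher and RpS14b (-1.42) lower, the last with a near-identical copy among which reads may be split.

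**Figure D2:**
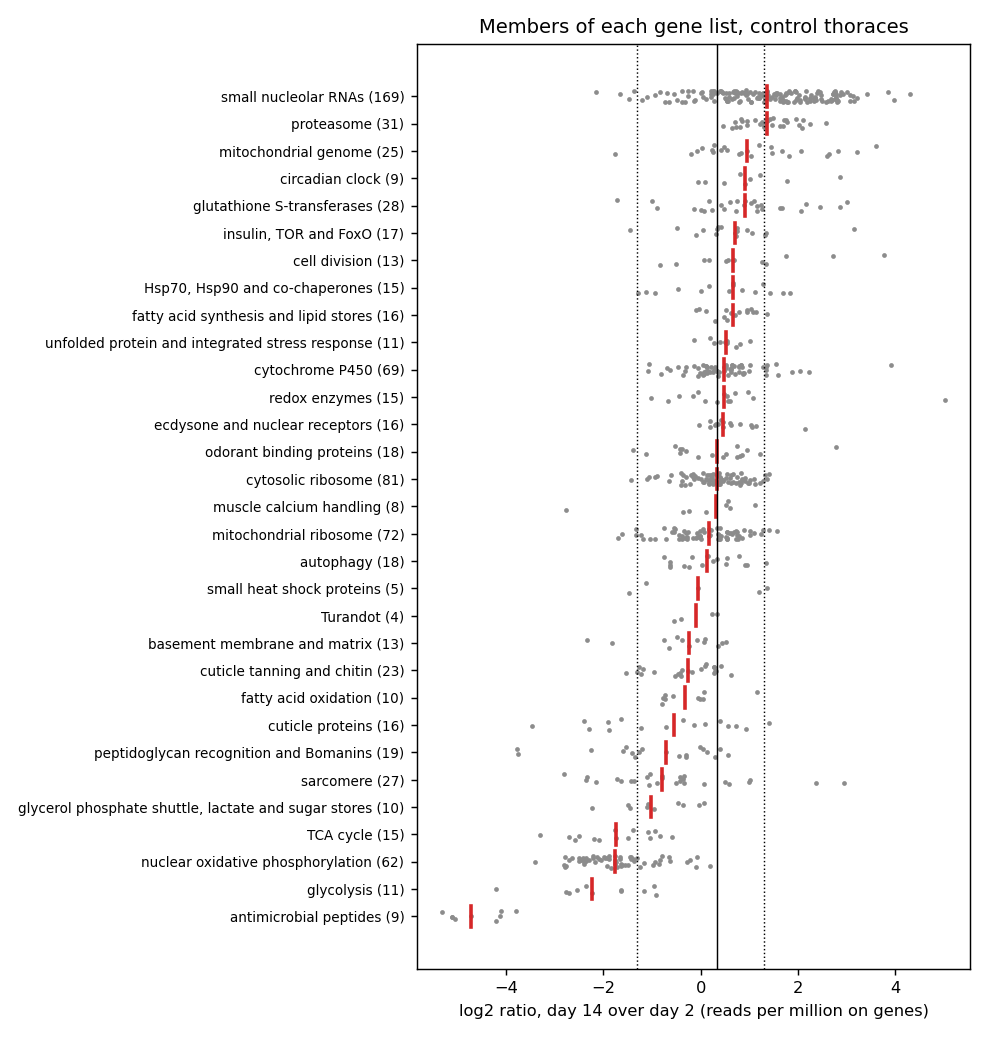
Log2 ratio, day 14 over day 2, of every measured member (grey points) of the gene lists with at least 4 measured members, with the list median as a red bar and the number of members in brackets. The solid line is the median of all genes (0.34) and the dotted lines are the cut-offs. Antimicrobial peptides, glycolysis, oxidative phosphorylation and the TCA cycle have medians under the lower cut-off, and the proteasome and small nucleolar RNAs have medians above the upper one.

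Sarcomere genes changed in both directions. Of 27 measured, 8 were lower and 2 higher, with a median of -0.79, and their summed level was 55059 rpm at day 14 and 61695 rpm at day 2. The lower ones came from several parts of the sarcomere. They included the tropomyosin Tm1 (808 rpm at day 14, 4135 rpm at day 2), the jump muscle troponin C gene TpnC41C (273 rpm at day 14, 1378 rpm at day 2) and the muscle LIM protein Mlp84B (761 rpm at day 14, 2376 rpm at day 2). Flightin, fln, a thick filament protein of flight muscle, had 419 rpm at day 14 and 1845 rpm at day 2, and paramyosin, Prm, had 905 rpm at day 14 and 2338 rpm at day 2.

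Other thick filament genes and the titin-like genes were inside the cut-off. Myosin heavy chain, Mhc, had 5527 rpm at day 14 and 7002 rpm at day 2. The regulatory light chain Mlc2, the most abundant sarcomere gene per length, had 7668 rpm at day 14 and 10271 rpm at day 2, and the other light chain gene, Mlc1, had 806 rpm at day 14 and 1736 rpm at day 2. The titin-like genes bt (0.50) and sls (0.99) had ratios above 0. By rpm most sarcomere genes thus lay within the cut-off while a few moved by more than 4-fold. Of the 27 measured, 20 had ratios below 0, and under TMM 11 were lower and 2 higher.

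Actin genes diverged from each other. Act88F, the actin of indirect flight muscle, had 4861 rpm at day 14 and 938 rpm at day 2, and Act57B, known mainly from larval body wall muscle, had 3107 rpm at day 14 and 406 rpm at day 2. Act79B, an actin of leg and other thoracic muscles, went the other way with 381 rpm at day 14 and 2659 rpm at day 2, and Act87E had 127 rpm at day 14 and 236 rpm at day 2. The log2 ratios were 2.37, 2.94, -2.80 and -0.90. For Act88F and Act57B the day 14 level exceeded all the other libraries, and the next highest were 2992 rpm for Act88F (Esg>yki day 8) and 2579 rpm for Act57B (control day 38). The actin coding sequences are nearly identical, so the assignment of reads among these genes is uncertain, and an exon of Act57B also overlaps snoRNA:660.

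Calcium handling was close to the background apart from 1 gene. SERCA, the pump that refills the sarcoplasmic reticulum, had 842 rpm at day 14 and 5746 rpm at day 2, a log2 ratio of -2.77, with exons that overlap CG2812. The other 7 genes of the list lay between -0.35 (the release channel RyR) and 1.12 (calmodulin, Cam). In the Z-disc family, Zasp67, among the 12 lowest ratios, had 1.06 rpm at day 14 and 28.6 rpm at day 2, whereas Zasp52 (0.58) and Zasp66 (-0.50) were inside the cut-off.

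Inducible immune genes were lower. Antimicrobial peptides are secreted by fat body and blood cells under the control of the Toll and Imd pathways. All 14 of the list had a lower level at day 14, and the 9 that reached 1 rpm were past the cut-off, 7 of which reached it at day 2 only, which fixed their direction. These 9 had a median of -4.71, and the list had a summed level of 10.7 rpm at day 14 and 284.5 rpm at day 2. Drosomycin, Drs, a Toll target, had 4.54 rpm at day 14 and 155 rpm at day 2. The Imd target DptB had 0.55 rpm at day 14 and 21.6 rpm at day 2 (log2 -5.31, interval -6.09 to -4.61, overlapping CG43109). Mtk had 0.55 rpm at day 14 and 14.3 rpm at day 2.

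Attacins and Cecropins had the same direction. AttC, whose exons overlap CG4744, had 2.74 rpm at day 14 and 50.4 rpm at day 2. AttA had 0.90 rpm at day 14 and 15.7 rpm at day 2, and CecA2 had 0.19 rpm at day 14 and 6.38 rpm at day 2, both with close copies that can share reads. DptA had 0.23 rpm at day 14 and 7.72 rpm at day 2. At day 14 the 9 peptides thus had between 6 reads (CecA2) and 141 reads (Drs).

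Of 19 measured peptidoglycan recognition proteins and Bomanins, 7 were lower and none higher, with a median of -0.72. The Bomanins, short Toll-induced peptides, accounted for 6 of the 7. BomS2, the most abundant per length, had 99.1 rpm at day 14 and 472 rpm at day 2, and BomBc1 had 4.67 rpm at day 14 and 64.0 rpm at day 2. PGRP-SC2, a secreted amidase that degrades peptidoglycan, was lower too (0.19 rpm at day 14, 2.59 rpm at day 2), while the sensors PGRP-LC (0.57) and PGRP-LE (0.40) were inside the cut-off. The lowest ratio of all genes with at least 10 rpm was that of SPH93 (2L, 17454263 to 17455923, minus strand), a serine protease homologue, with 1 read or 0.03 rpm at day 14 and 6789 reads or 232 rpm at day 2. Its log2 ratio was -12.81 (interval -18.12 to -10.34), and the other 8 libraries held 0.22 to 12.9 rpm.

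The day 2 control library decides these immune values. Drs, SPH93, BomBc1 and BomS2 were higher in it than in any other library, and the Esg>yki day 2 library held 10.3 rpm of Drs, 0.59 rpm of DptB and 1.39 rpm of SPH93. Against that library the median of the 9 antimicrobial peptides was 0.27, with 3 above 1.3 and none under -1.3 (-0.41 over those with at least 1 rpm in either library), and that of the recognition proteins and Bomanins was 0.33. Summed over the antimicrobial peptides, the 10 libraries ranged from 10.7 to 1697.5 rpm, with the control day 14 library at the low end. The Turandot genes, secreted stress proteins, showed no difference in this comparison, with none of 4 past the cut-off and TotA at 586 rpm at day 14 and 500.2 rpm at day 2.

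The proteasome, which degrades ubiquitin-tagged proteins, was the clearest group of higher genes among the protein complexes. All 31 measured of 32 genes had ratios above 0 and 18 were higher, with a median of 1.36 (10 higher under TMM). Their summed level was 5234 rpm at day 14, the highest of all 10 libraries, and 1910 rpm at day 2. The 20S core, with 9 of 13 higher (median 1.37), and the 19S regulatory particle, with 9 of 18 (1.33), were alike in this. The lid subunit Rpn5 had 283 rpm at day 14 and 47.6 rpm at day 2, and the base ATPase Rpt3 had 417 rpm at day 14 and 87.6 rpm at day 2. In the core, Prosalpha4 had 195 rpm at day 14 and 45.2 rpm at day 2, and Prosbeta5, the chymotrypsin-like peptidase and the most abundant per length, had 360 rpm at day 14 and 110 rpm at day 2.

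Chaperones were partly higher. Of 15 measured Hsp70, Hsp90 and co-chaperone genes, 3 were higher and none lower, with a median of 0.67 (2 higher and 2 lower under TMM). These were the BAG-family co-chaperone stv (186 rpm at day 14, 52.3 rpm at day 2), Stip1, which links Hsp70 to Hsp90 (132 rpm at day 14, 41.1 rpm at day 2), and the Hsp90 gene Hsp83 (2404 rpm at day 14, 891 rpm at day 2, overlapping CG14966). The constitutive Hsc70-4, the most abundant per length, had 2359 rpm at day 14 and 1086 rpm at day 2, inside the cut-off at 1.12. The heat-inducible Hsp70 copies, which are nearly identical to each other, stayed between 0.42 and 18.4 rpm at both days.

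Small heat shock proteins gave no common direction, with 1 of 5 higher, 1 lower and a median of -0.05. The most abundant per length, l(2)efl, had 168 rpm at day 14 and 175 rpm at day 2. Hsp23 had 14.2 rpm at day 14 and 5.50 rpm at day 2, and Hsp67Bc had 1.61 rpm at day 14 and 4.44 rpm at day 2. Autophagy genes were at the background, with 1 of 18 higher, none lower and a median of 0.14 (-0.21 under TMM). The higher one was the cargo receptor ref(2)P, with 398 rpm at day 14 and 156 rpm at day 2, while the membrane tag Atg8a had 229 rpm at day 14 and 357 rpm at day 2. Of 11 genes of the unfolded protein and integrated stress responses none passed the cut-off, and Xbp1, the most abundant per length, had 960 rpm at day 14 and 549 rpm at day 2.

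Genes of fatty acid synthesis and lipid stores did not follow the energy genes of the muscle, while those of fatty acid oxidation leaned downward within the cut-off. Of 16 genes for fatty acid synthesis and lipid stores, 14 had ratios above 0, 1 was higher and none lower, with a median of 0.66 (0.31 and none higher under TMM). The higher gene was apolpp (chromosome 4, overlapping Zyx), which encodes the main lipoprotein of the blood and comes from fat body, with 21188 rpm at day 14 and 8260 rpm at day 2. The fatty acid synthase FASN1 had 2043 rpm at day 14 and 1002 rpm at day 2, inside the cut-off. Of 10 fatty acid oxidation genes none passed in either direction, but 7 had ratios below 0, with a median of -0.31 (-0.67 under TMM). The most abundant per length, wal, an electron transfer flavoprotein subunit, had 157 rpm at day 14 and 273 rpm at day 2.

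Of the 4 larval storage protein genes, Lsp2 and Lsp1beta were higher. Lsp2 had 146 rpm at day 14 and 14.6 rpm at day 2 (log2 3.32), with an antisense gene on its exons, asRNA:CR11538. The other 3, all outside the rule for named genes and chosen after their values were seen, were Lsp1beta, with 472 rpm at day 14 and 37.7 rpm at day 2, Lsp1alpha, with 1.09 rpm at day 14 and 0.65 rpm at day 2, and Lsp1gamma, with 2.74 rpm at day 14 and 5.43 rpm at day 2. These are hexamerins that larval fat body makes in bulk. The Esg>yki day 2 library held 174 rpm of Lsp2 and 205 rpm of Lsp1beta, so the 2 day 2 libraries differed from each other for Lsp2 by more than the 2 control days did, and the control day 38 library held 2.05 rpm of Lsp2 and 15.0 rpm of Lsp1beta.

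The fat body marker list contains Lsp2 itself. Of 5 measured of 10, 2 were higher, Lsp2 and the lipoprotein apolpp (1 under TMM), and none lower, and the summed level of the list was 24771 rpm at day 14, the highest of the 10 libraries, and 10261 rpm at day 2, the lowest. Most of this sum was apolpp, with 21188 rpm at day 14 and 8260 rpm at day 2. Flight muscle markers were nearer to equal, with sums of 12493 rpm at day 14 and 13463 rpm at day 2, the highest of the 10, and with 1 of 6 higher (Act88F) and 2 lower (fln and Prm). The part of the fat body share in any result was not tested.

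Among detoxifying enzymes, glutathione S-transferases were often higher, with 7 of 28 higher, 1 lower and a median of 0.91 (6 higher and 2 lower under TMM). GstE8 had 112 rpm at day 14 and 15.3 rpm at day 2, and the next highest of the other libraries was 29.8 rpm. GstD9 had 298 rpm at day 14 and 54.8 rpm at day 2, and GstD10 had 4.12 rpm at day 14 and 0.51 rpm at day 2. GstE6, chosen after its values were seen, had 244 rpm at day 14 and 58.5 rpm at day 2. GstD1, the most abundant per length, moved less, with 243 rpm at day 14 and 206 rpm at day 2. GstS1, a muscle enzyme, went the other way, with 372 rpm at day 14 and 745 rpm at day 2.

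Cytochromes P450 had 10 of 69 higher and none lower, with a median of 0.48 (0.13, 4 higher and 2 lower under TMM), which is near the background of 9.6%. Cyp4g1, which makes cuticular hydrocarbons in oenocytes, was the most abundant per length with 1222 rpm at day 14 and 794 rpm at day 2. The members past the cut-off with the largest ratios were low, with at most 11.8 rpm in Cyp4e3, 1.13 rpm in Cyp6g2 and 1.03 rpm in Cyp4aa1, which overlaps the muscle gene Strn-Mlck. Redox enzymes had 1 of 15 higher and none lower. Sod1 had 338 rpm at day 14 and 376 rpm at day 2, and the higher one, the testis thioredoxin TrxT, reached 2.22 rpm at day 14 and 0.07 rpm at day 2.

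Clock genes had 2 of 9 higher and none lower, with a median of 0.92 (0.56 under TMM). The clock repressor tim had 269 rpm at day 14 and 79.0 rpm at day 2, and the clock output gene takeout, to, expressed in fat body, had 303 rpm at day 14 and 41.5 rpm at day 2. The partner of tim, per, had 7.66 rpm at day 14 and 7.17 rpm at day 2, and Clk (1.02), cwo (1.23), Pdp1 (0.92) and vri (0.80) were inside the cut-off. The hour of dissection was not given in the sources used here.

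Insulin, TOR and FoxO genes had 3 of 17 higher and 1 lower, with a median of 0.70 (0.34 with 1 higher and 1 lower under TMM). Sestrin, Sesn, an inhibitor of TOR, had 6.09 rpm at day 14 and 0.68 rpm at day 2, with several annotated genes on its exons. The PGC-1 homologue srl, a coactivator of mitochondrial genes, had 25.4 rpm at day 14 and 10.0 rpm at day 2. The insulin antagonist ImpL2 had 12.4 rpm at day 14 and 4.95 rpm at day 2. The energy sensor AMPKalpha was the lower one, with 74.8 rpm at day 14 and 205 rpm at day 2. REPTOR, the TOR-regulated factor the study is about, had 204 rpm at day 14 and 122 rpm at day 2, a ratio of 0.74 inside the cut-off, and its partner REPTOR-BP had 72.8 rpm at day 14 and 54.7 rpm at day 2. Nuclear receptors of the ecdysone cascade had 1 of 16 higher and none lower, which was Hr3 with 4.54 rpm at day 14 and 1.02 rpm at day 2, while the fat and gut receptor Hnf4, the most abundant per length, had 87.8 rpm at day 14 and 70.9 rpm at day 2.

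Cuticle proteins, which are laid down around eclosion, had 6 of 16 measured lower and 1 higher, with a median of -0.54, and the rest of the 126 listed were too low to test. The lower ones were weakly expressed, such as Cpr47Ef (2.09 rpm at day 14, 10.3 rpm at day 2), Cpr100A (0.45 rpm at day 14, 2.36 rpm at day 2) and Cpr49Ab (3 reads or 0.10 rpm at day 14, 1.06 rpm at day 2). The abundant Cpr65Au had 170.0 rpm at day 14 and 160 rpm at day 2. Tanning and chitin genes had 2 of 23 lower, e (24.3 rpm at day 14, 60.4 rpm at day 2) and the chitinase Cht2 (2.0 rpm at day 14, 5.77 rpm at day 2), and under TMM 6 were lower.

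In the basement membrane and matrix list 2 of 13 genes were lower and none higher, and both encode type IV collagen. Col4a1 had 30.1 rpm at day 14 and 151 rpm at day 2, and its partner vkg, which shares a promoter region with it, had 51.1 rpm at day 14 and 181 rpm at day 2. The laminins LanA (0.06), LanB1 (0.10) and LanB2 (-0.07) and the collagen-binding SPARC (-0.48) were inside the cut-off. Odorant binding proteins had 1 of 18 higher and 1 lower. Obp99b, the most abundant, had 975 rpm at day 14 and 141 rpm at day 2, and the other libraries held 1.36 to 155 rpm. Obp99d had 0.48 rpm at day 14 and 1.26 rpm at day 2.

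Cell division genes had 4 of 13 higher and none lower, at low levels. RnrL, a ribonucleotide reductase subunit that makes DNA precursors, had 22.3 rpm at day 14 and 3.41 rpm at day 2. The mitotic kinases polo (2.77 rpm at day 14, 0.20 rpm at day 2) and BubR1 (6.57 rpm at day 14, 1.95 rpm at day 2) were higher too. The list for esg progenitors had 1 of 4 higher and summed to 93.7 rpm at day 14 and 81.2 rpm at day 2. The higher gene was ImpL2, already named with the insulin genes. The study describes it as secreted by the gut tumours, and it is not a progenitor marker.

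The largest ratios upward belonged to genes that were almost silent at day 2. CG10725 had 581 reads or 18.7 rpm at day 14 and 2 reads or 0.07 rpm at day 2, a log2 ratio of 8.10 (interval 6.24 to 11.15). CG3906 had 550 reads or 17.7 rpm at day 14 and 2 reads or 0.07 rpm at day 2. CG14645, which overlaps Skp2, had 58.8 rpm at day 14 and 0.38 rpm at day 2, and the mucin gene Muc68D had 98.8 rpm at day 14 and 0.79 rpm at day 2. CG31077 had 41.7 rpm at day 14 and 0.38 rpm at day 2, and CG3819 had 12.5 rpm at day 14 and 0.10 rpm at day 2. CG14125 had 444 reads at day 14 and none at day 2, which is at least 139.6-fold higher against a floor of 3 reads in the day 2 library.

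These 7 of the 12 highest ratios were grouped after their values were seen, by the library that held most of them among the others. Among the 8 other libraries, the Esg>yki day 38 library held the highest level of each of them, at 3.63 rpm for CG10725, 16.5 rpm for CG3906, 51.2 rpm for CG14645, 12.2 rpm for CG14125, 102 rpm for Muc68D, 11.8 rpm for CG3819 and 28.5 rpm for CG31077. For Muc68D this was above the control day 14 level, and for CG10725 it was well below it. In the control day 38 library each of them was under 1 rpm, as in Muc68D with 0.11 rpm and CG31077 with 0.27 rpm. The Esg>yki day 2 library held more of some of them than the control day 2 library, with 15.0 rpm of Muc68D and 7.84 rpm of CG14645.

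The other 5 of the 12 highest ratios were more widely expressed or sperm-related. CG14545 had 376 reads at day 14 and none at day 2, at least 118-fold higher against the same floor, with 5.51 rpm in the control day 38 library. S-Lap1, a sperm leucyl aminopeptidase, had 12.3 rpm at day 14 and 0.55 rpm at day 2. Muc14A, a mucin, had 33.8 rpm at day 14 and 1.78 rpm at day 2, and CG12112 had 74.0 rpm at day 14 and 5.12 rpm at day 2. The small nucleolar RNA snoRNA:lola-b had 16.7 rpm at day 14 and 1.16 rpm at day 2. In these 5 genes the Esg>yki course had positive ratios for all but S-Lap1.

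Testis markers were above their day 2 level in the same library. All 19 of the list had a higher level at day 14, most of them under 1 rpm. Of the 6 that reached 1 rpm, 4 were higher, and these reached it at day 14 only, which fixed their direction. The list had a summed level of 18.1 rpm at day 14, the highest of the 10 libraries, and 3.76 rpm at day 2. The sperm tail gene dj had 1.71 rpm at day 14 and no read at day 2, and betaTub85D, the testis tubulin, had 2.03 rpm at day 14 and 0.14 rpm at day 2. Mst87F had 1.55 rpm at day 14 and 0.34 rpm at day 2, and janB had 1.48 rpm at day 14 and no read at day 2. All 113 Y-linked genes summed to 11.9 rpm at day 14 and 2.7 rpm at day 2, and of the 4 measured 3 were higher. Of the 12 accessory gland genes only Acp62F could be measured (0.13 rpm at day 14, 1.78 rpm at day 2). The part of testis RNA in the result for S-Lap1, TrxT or other genes was not tested.

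Other cell types gave no shift past the cut-off in most of their markers. Hemocyte markers had 1 of 9 higher (He, 1.71 rpm at day 14 and 0.27 rpm at day 2), and the most abundant per length, crq, had 195 rpm at day 14 and 113 rpm at day 2. Neuron and glia markers had none of 12 past the cut-off, with 649 rpm at day 14 and 525 rpm at day 2 for the glial transporter Eaat1. Digestive enzymes had none of 12 measured of 53 past it. All 53 summed to 784 rpm at day 14 and 632 rpm at day 2, within 361 to 1176 rpm over the 10 libraries. LManII, a lysosomal mannosidase and the most abundant of these per length, had 488 rpm at day 14 and 274 rpm at day 2.

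The lower end held genes of other kinds as well. Nplp3, a neuropeptide-like precursor, had 5.76 rpm at day 14 and 126 rpm at day 2, and CG13026, which overlaps CG13031, had 0.74 rpm at day 14 and 40.0 rpm at day 2. For both, and for Zasp67, the Esg>yki day 2 library was still higher than the control day 2 library, with 216 rpm of Nplp3, 46.8 rpm of CG13026 and 30.4 rpm of Zasp67.

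Small nucleolar RNAs, which guide the chemical modification of ribosomal RNA, were the largest group of higher genes. Of 169 measured of 304 listed, 91 were higher and 4 lower, with a median of 1.37 (1.02, with 71 higher and 6 lower, under TMM). The named methylation guides led, with 38 of 44 measured higher, none lower and a median of 2.28, out of 103 listed. The named pseudouridylation guides had 19 of 71 measured higher and 3 lower with a median of 0.71, out of 109 listed. Members that reached 1 rpm at day 14 only, such as snoRNA:Me18S-C419, had their direction fixed by that. How many did so was not counted. The most abundant per length, snoRNA:Me28S-G2703a, had 261 rpm at day 14 and 74.97 rpm at day 2, and snoRNA:Me18S-C419 had 2.67 rpm at day 14 and 0.17 rpm at day 2. Against the Esg>yki day 2 library 49 of all 169 were higher with a median of 0.81. In that comparison 23 of 44 methylation guides (median 1.35) and 8 of 71 pseudouridylation guides (median 0.18) were higher. Most of these genes lie in introns of other genes.

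Other classes of noncoding RNA differed from the coding genes. Of 7 measured spliceosomal and related snRNA genes, 4 were lower and none higher, with a median of -1.41. The lower ones held little of the class, which summed to 7640 rpm at day 14 and 5923 rpm at day 2. Most of this was snRNA:7SK, which is not spliceosomal, with 7606 rpm at day 14 and 5850 rpm at day 2. Of 281 long noncoding RNA genes, 72 were higher and 14 lower with a median of 0.78. The 9113 protein-coding genes had a median of 0.33 with 738 higher and 278 lower.

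Genes of chromosome 4, the small, largely heterochromatic autosome of the fly, were shifted upward as a group. Of 95 measured, 28 were higher and 2 lower, and 89 had ratios above 0, with a median of 0.97, while the medians of the other large chromosome arms lay between 0.23 and 0.40. The higher genes included the axon guidance receptor PlexA (595 rpm at day 14, 188 rpm at day 2), the ubiquitin shuttle Rad23 (427 rpm at day 14, 98.9 rpm at day 2), the adaptor Crk (291 rpm at day 14, 81.6 rpm at day 2) and the ribosomal protein gene RpS3A (2540 rpm at day 14, 1023 rpm at day 2), all picked after their values were seen. The Polycomb-group DNA-binding gene pho had 117 rpm at day 14 and 39.6 rpm at day 2. The 2 lower genes, ATPsynbeta and ND-49, both encode subunits of the respiratory chain.

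The difference was present within classes of gene length. In every length class with a chromosome 4 gene its median was above that of the other nuclear protein-coding genes, from 0.75 against 0.33 for 500 to under 1000 exon bases (3 genes on chromosome 4) to 1.12 against 0.40 for 8000 bases or more (10 genes). In the middle classes the medians were 1.07 against 0.27, 0.97 against 0.33 and 0.90 against 0.37. Under TMM scaling the chromosome 4 median was 0.62 with 17 higher genes, and against the Esg>yki day 2 library it was 0.76 with 20 higher.

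**Figure D3:**
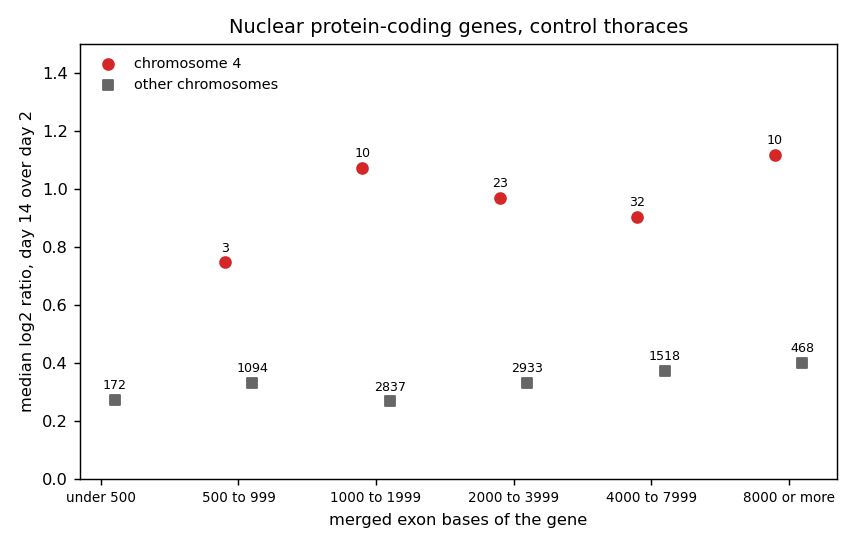
Median log2 ratio, day 14 over day 2, of nuclear protein-coding genes on chromosome 4 (red circles) and on the other chromosomes (grey squares) in 6 classes of merged exon length, with the number of genes above each point. In all classes with a chromosome 4 gene the circle lies above the square, at 0.75 to 1.12 against 0.27 to 0.40.

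The control day 38 library, from older flies moved to 18 °C after day 14, was set against the same day 2 library, so part of the agreement with day 14 comes from the shared library. Over all 9626 genes tested, 67.4% were above and 32.4% below their day 2 level at day 38. Of the 924 higher genes, 818 (88.5%) were above their day 2 level at day 38, 565 of these between the day 2 and day 14 levels, and 253 stood at or past their day 14 level. Of the 301 lower genes, 287 (95.3%) were below their day 2 level at day 38, and 142 were at or past the day 14 level. Only 106 of the higher and 14 of the lower genes had returned to their day 2 level or beyond.

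Energy genes differed in how far they stood from day 2 at day 38. Below the day 2 level by more than the cut-off were 55 of 62 genes of nuclear oxidative phosphorylation, 10 of 15 of the TCA cycle and 5 of 11 of glycolysis. Over days 2, 14 and 38 Gapdh1 had 5456, 297 and 292 rpm, kdn had 949, 97.2 and 113 rpm, and ATPsynbeta had 19585, 2869 and 2124 rpm. Pgk had 309, 47.7 and 230 rpm, and glycolysis as a list summed to 18090, 4055 and 6416 rpm. Flightin continued downward with 1845, 419 and 111 rpm, and Act79B with 2659, 381 and 157 rpm. The antimicrobial peptides stayed low, with sums of 284.5, 10.7 and 16.6 rpm.

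Several higher genes were near their day 2 level again at day 38. Act88F had 938, 4861 and 1092 rpm over days 2, 14 and 38, GstE8 had 15.3, 112 and 22.1 rpm, and Obp99b had 141, 975 and 155 rpm. The proteasome as a list summed to 1910, 5234 and 3602 rpm, between its day 2 and day 14 levels. Hsp83 (891, 2404 and 1957 rpm) and stv (52.3, 186 and 177 rpm) stayed nearer to day 14, while Stip1 was back at its day 2 level with 41.1, 132 and 40.0 rpm. Day 38 combines age with a lower temperature and a silenced driver, which cannot be told apart.

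**Figure D4:**
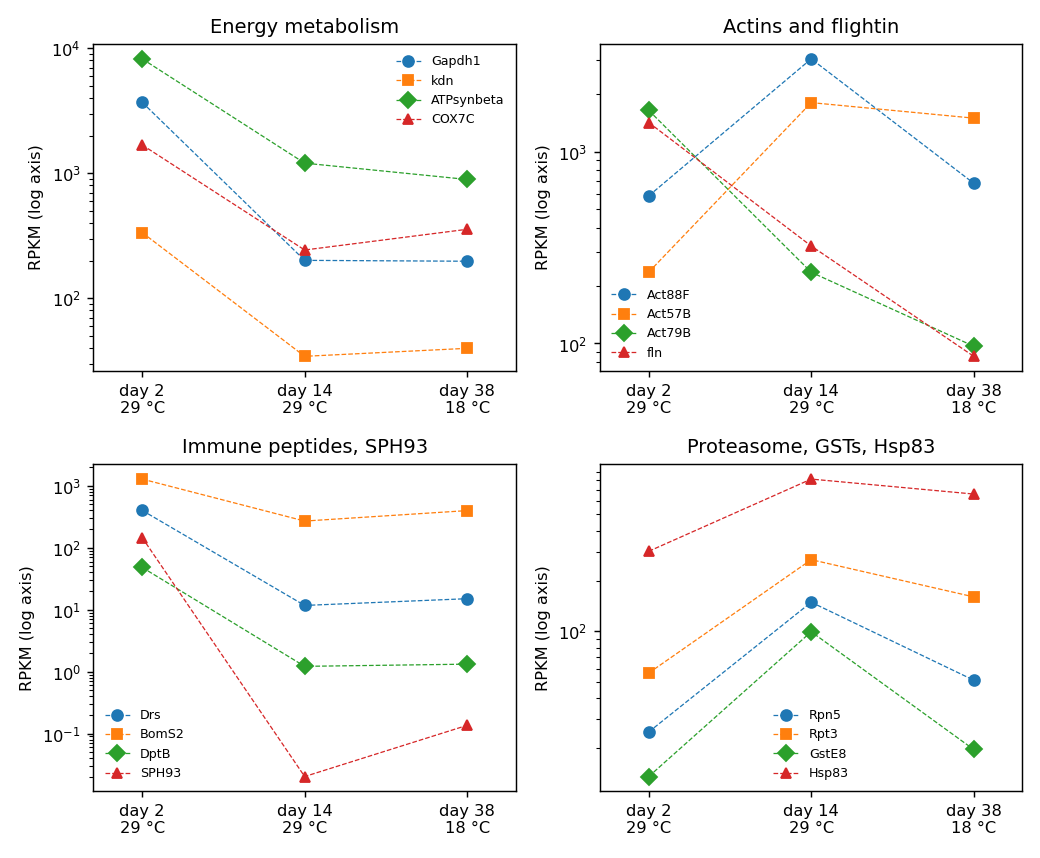
Levels of 16 genes in the 3 control libraries, in RPKM (log axis), with 1 library per point and the rearing temperature under each day. The 4 energy genes plotted are low at day 14 and day 38, immune genes are highest at day 2, and GstE8 and Act88F peak at day 14.

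The Esg>yki flies went through the same days at 29 °C with a growing gut tumour, in libraries that the control comparison does not share. In these thoraces 765 of 9724 genes (7.87%) were higher at day 14 and 1345 (13.8%) were lower, by the same cut-off and minimum. The overlap of higher genes was 384, which is 41.6% of the control list and 50.2% of the Esg>yki list, and that of lower genes was 244, which is 81.1% of the control list and 18.1% of the Esg>yki list. Across 9348 genes measured in both courses the ratios had a Pearson r of 0.59 and a Spearman rho of 0.70, a description over genes that share libraries within each course.

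The genes called in controls can be followed in Esg>yki flies, as a description, since they were chosen on the control values. The 301 genes lower in controls had medians of -1.83 in control thoraces and -2.41 in Esg>yki thoraces, and the 924 higher genes had medians of 1.76 in control thoraces and 1.25 in Esg>yki thoraces. Over the 9348 genes measured in both courses the medians were 0.33 in control and 0.0019 in Esg>yki thoraces, and list medians are to be read against these. The list medians for control and Esg>yki thoraces were -2.22 and -2.99 for glycolysis, -1.74 and -2.23 for the TCA cycle and -1.75 and -2.34 for nuclear oxidative phosphorylation. The energy lists were thus lower at day 14 in flies without and with a tumour. Proteasome medians were 1.36 in control and 0.88 in Esg>yki thoraces. Small nucleolar RNAs had 1.37 in control and 1.47 in Esg>yki thoraces, and chromosome 4 genes had 0.97 in control and 0.91 in Esg>yki thoraces. With 1 library per condition none of these differences between the genotypes could be tested.

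Other lists parted between the genotypes. Antimicrobial peptides had medians of -4.71 in control and 5.09 in Esg>yki thoraces, where 8 of the 9 were higher. The exception was Drs, the most abundant per length, with -5.10 in control and -1.03 in Esg>yki thoraces. Some of these ratios rest on few reads, as in DptA with 1 read at day 2 in Esg>yki flies. Turandot genes had -0.09 in control and -3.84 in Esg>yki thoraces. Fatty acid oxidation had -0.31 in control and -1.56 in Esg>yki thoraces, and glutathione S-transferases had 0.91 in control and -0.46 in Esg>yki thoraces. Among genes with at least 10 rpm, 18 passed the cut-off in opposite directions. In 11 the control course was the higher one, among them Act88F (309 rpm at day 14 and 898 rpm at day 2 in Esg>yki flies), Obp99b (1.36 rpm at day 14 and 150 rpm at day 2), to (8.80 rpm at day 14 and 79.0 rpm at day 2) and Lsp2 (0.16 rpm at day 14 and 174 rpm at day 2). The other 7 were lower in the control course, and these were DptB, Mtk, AttC, AttA, BomS1, BomS5 and the phagocytosis receptor NimC4.

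**Figure D5:**
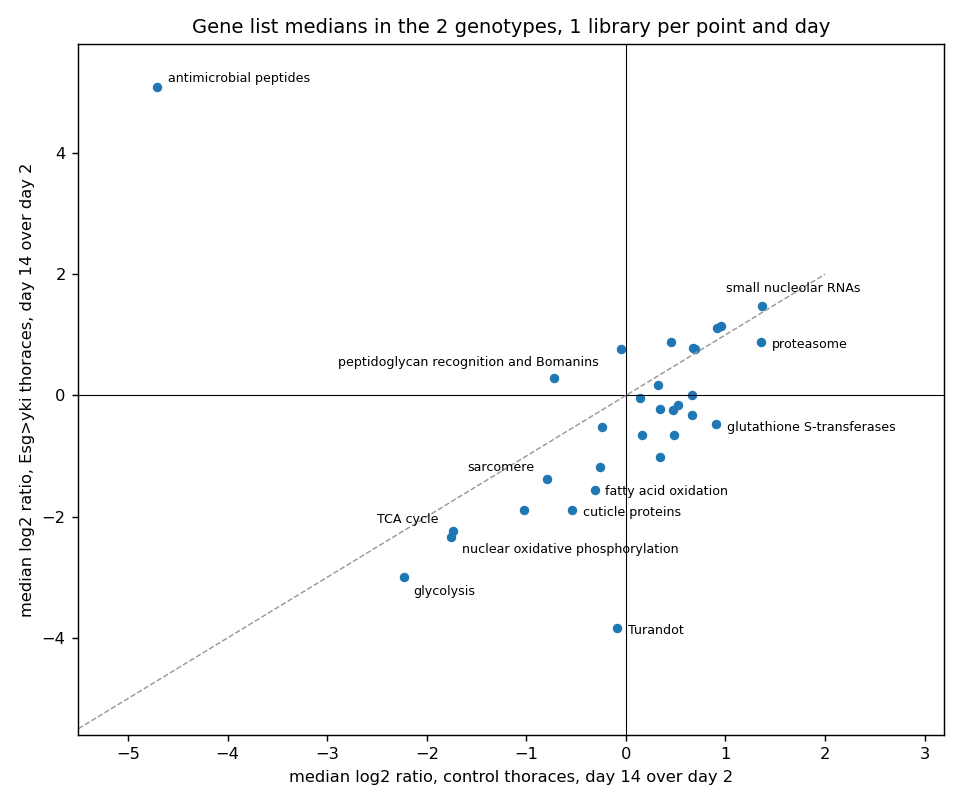
Median log2 ratio, day 14 over day 2, of each gene list in control thoraces (horizontal axis) and in Esg>yki thoraces (vertical axis), from 1 library per genotype and day. The dashed line marks equal medians. The energy lists lie low on both axes, below the dashed line, and the antimicrobial peptides lie alone at the upper left, at -4.71 in controls and 5.09 in Esg>yki flies.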

How the data were processed

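RNA was extracted with Trizol from 8 to 10 thoraces per library, depleted of rRNA and sequenced in 4 pools on a NextSeq. Alignment by the authors used STAR 2.7.2b against FlyBase release 6.30. Which program counted reads, whether strand was used and how reads matching several genes were handled is not given in the sources used here. The deposited table holds estimated counts, in steps of 0.25 and without scaling for depth. Taking each value as an average of the 4 pools, 4 times the value was used as reads and was whole for every gene. Reads were divided by the library total on genes (rpm) and, to compare levels between genes, by merged exon length (RPKM). Exons came from Ensembl release 115 (Release 6 assembly), and 57 of 17563 identifiers had no match.

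Genes with at least 1 rpm in the larger library entered, with no pseudocount. A count of 0 was set to 3 reads, so such a ratio is a bound. Each group has 1 library, so no p-value was computed, and intervals are 95% Clopper-Pearson intervals for counting error alone. PCR copies are not independent molecules, which these intervals do not cover. Depth was 31058987 reads at day 14 and 29290646 at day 2. Alternative scalings used edgeR 4.0.16 (TMM), DESeq2 1.42.0 (size factors) and reads on nuclear protein-coding genes; other minimums, cut-offs, a pseudocount and neighbouring libraries were also tried. The counting rules were checked on simulated reads.

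Named genes are the 12 highest and 12 lowest ratios with at least 10 rpm, in each of 31 gene lists and 8 marker lists the most abundant member per length and up to 3 members past the cut-off with the largest change, and the 8 genes with the most reads. Other genes named were chosen after their values were seen. Members and lists were chosen with earlier results of these data known. Scripts ran in Python 3.11.15 and R 4.3.3.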

Additional observations from a re-analysis of the deposited data

Results flagged for a closer look

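A group of values had opposite directions in the control and the Esg>yki course, each past the cut-off. With 1 library per condition the difference between the genotypes was not tested. The median of the antimicrobial peptides was -4.71 in control thoraces and 5.09 in Esg>yki thoraces. Its members DptB (-5.31 in control and 5.55 in Esg>yki thoraces), Mtk (-4.71 in control and 3.32 in Esg>yki), AttC (-4.20 in control and 3.89 in Esg>yki) and AttA (-4.13 in control and 4.68 in Esg>yki) were likewise lower at day 14 in control and higher at day 14 in Esg>yki thoraces. The member Drs was lower at day 14 in both, with -5.10 in control and -1.03 in Esg>yki thoraces, the latter inside the cut-off. Beside these values stand the 2 day 2 libraries, with 21.6 rpm of DptB in controls and 0.59 rpm in Esg>yki flies.

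Among the highest ratios of the control course, CG3906 had 8.02 in control and -4.94 in Esg>yki thoraces, CG14645 had 7.29 in control and -4.95 in Esg>yki thoraces, and Muc68D had 6.97 in control and -6.89 in Esg>yki thoraces. Their levels at day 2 were all under 1 rpm in controls, and 2.91 rpm for CG3906, 7.84 rpm for CG14645 and 15.0 rpm for Muc68D in Esg>yki flies.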

How the results depend on the processing

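With 1 library a day, the effect of age cannot be told apart from that of the flies or the preparation behind a library, and depth limits genes of a few reads, where intervals span several log2 units. No paired analysis was possible because each group has 1 library and the labels carry no replicate numbers. The counts of higher and lower genes, 924 and 301 as reported, were 540 and 498 with TMM and 533 and 503 with the median of ratios. They were 1831 and 492 with no minimum level, 1549 and 456 at a cut-off of 1, and 354 and 128 at a cut-off of 2. A minimum of 10 rpm gave 426 higher genes and a pseudocount of 1 rpm gave 535, with the lower counts within 1.5 times the reported one (211 and 229). Scaling by nuclear protein-coding reads (1034 and 278) and taking the deposited value itself as reads (929 and 301) left both counts within that range. The Esg>yki day 2 library in place of the control one gave 797 and 502, and the control day 38 library in place of day 14 gave 1433 and 492.

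Against the Esg>yki day 2 library the direction turned for AttC (0.38), BomBc1 (1.99), BomS2 (0.29), Lsp2 (-0.25) and Mst87F (-0.35). With day 38 in place of day 14 it turned for Hsp23 (-1.67), Stip1 (-0.041) and Lsp2 (-2.84). The cause was not tested. Over the other settings no named gene past the cut-off changed direction.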

Other observations

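Of the genes with at least 100 rpm in the larger control library, 280 passed the cut-off, and many were in no list. The genes below were picked from these after their values were seen, and they are given as values.

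Several higher genes have known roles beside the proteasome or in protein folding. Pomp, the assembly chaperone of the proteasome core, had 226 rpm at day 14 and 41.8 rpm at day 2, with exons that overlap vari. The proteasome-bound ubiquitin protease Usp14 had 103 rpm at day 14 and 24.1 rpm at day 2. The myosin chaperone unc-45 had 699.5 rpm at day 14 and 125 rpm at day 2, a log2 ratio of 2.49, and 472 rpm at day 38. The tubulin cofactor Tbce had 432 rpm at day 14 and 89 rpm at day 2, and the chaperonin subunit CCT2 had 269 rpm at day 14 and 69.5 rpm at day 2. In Esg>yki flies at day 2 these genes were within 1.5 times of their control day 2 level.

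The transposon-silencing Argonaute gene piwi, known mainly from the gonad, had 360 rpm at day 14 and 44.9 rpm at day 2, with exons that overlap SCAR. It had 927 rpm in the control day 38 library, and up to 1028 rpm over the other libraries. The metallothionein gene MtnA had 120.1 rpm at day 14 and 27.3 rpm at day 2, and 24.9 rpm at day 38.

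Among lower genes outside the lists, the mitochondrial pore gene porin had 521 rpm at day 14 and 2431 rpm at day 2, sharing exons with SmydA-3. The pyruvate dehydrogenase subunit Pdhb had 98.9 rpm at day 14 and 786 rpm at day 2. Scp1, which encodes a sarcoplasmic calcium-binding protein, had 2538 rpm at day 14 and 12267 rpm at day 2. Pepck2, a phosphoenolpyruvate carboxykinase, had 9.88 rpm at day 14 and 103 rpm at day 2.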
